A study of Rattus norvegicus with 6 samples.

Results

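The 37 genes described here drive or carry out the cell division cycle: the G1 cyclins and their kinases (7 genes), the machinery of DNA replication and nucleotide supply (13 genes) and the machinery of G2 and mitosis (17 genes). Members were chosen by name, as the array's non-control probes whose accession maps to one of the listed rat symbols. The rule used no measured value, but the list was drawn up with earlier results of these data known. Of the 37 genes, 33 had a probe (67 probes), and 26 had a probe that could be tested, against 15284 symbols matched on the array and 10257 genes tested in all. Liver RNA was measured in 6 male Sprague-Dawley rats (Crl:CD(SD)), bought at an age of 5 weeks, with 1 single-colour Agilent array per rat. The 3 control rats received corn oil alone, and the 3 treated rats received o-anthranilic acid (2-aminobenzoic acid) at 1000 mg/kg/day. The labels differ on the time: the treatment protocol gives 9 weeks of dosing and the series design gives a measurement at 28 days. No genetic change is named for either group. The comparison asks whether the treated livers differed from control livers in the expression of cell division genes.

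Most hepatocytes of an adult rat are out of the cell cycle, and they can re-enter it after loss or injury of liver tissue. D-type cyclins with Cdk4, and then E-type cyclins with Cdk2, inactivate the retinoblastoma proteins and free E2F factors, which switch on genes for the helicase, the clamp and the enzymes of nucleotide supply. Later in the cycle, genes for mitosis are switched on together, many through a pair of promoter elements, the CCAAT box and the cell cycle genes homology region (CHR). In whole liver RNA, fewer cells of a type and less RNA per cell cannot be told apart.

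No member passed the test in either direction. Of the 42 member probes tested, 0 passed limma's adjusted p threshold of 0.05, where 0.0329% of all tested probes passed, and 0 had an unadjusted p under 0.05, where 12.2% of all tested probes did. By gene, 0 of 26 members and 0 of all 10257 genes passed (0%), and 0 members against 11.6% of all genes had an unadjusted p under 0.05. In 0 of 26 members did the 3 treated rats lie wholly above or wholly below the 3 control rats, which 19.8% of all genes did. What did stand out, once the values had been seen, was 1 control rat: corn oil replicate 1 had the highest signal of the 6 rats in 20 of the 26 tested members.

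Levels below are log2 signals relative to the 75th percentile of the array's probes, so that 0 is that percentile. A difference is the mean of the treated rats less that of the control rats, in log2 units, and its standard error (SE) comes from the fit with 3 rats per group. Each gene is given by its brightest tested probe unless said otherwise. Levels of different genes are not compared, since each probe has a scale of its own. Replicates are different rats per the labels.

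**Figure D1:**
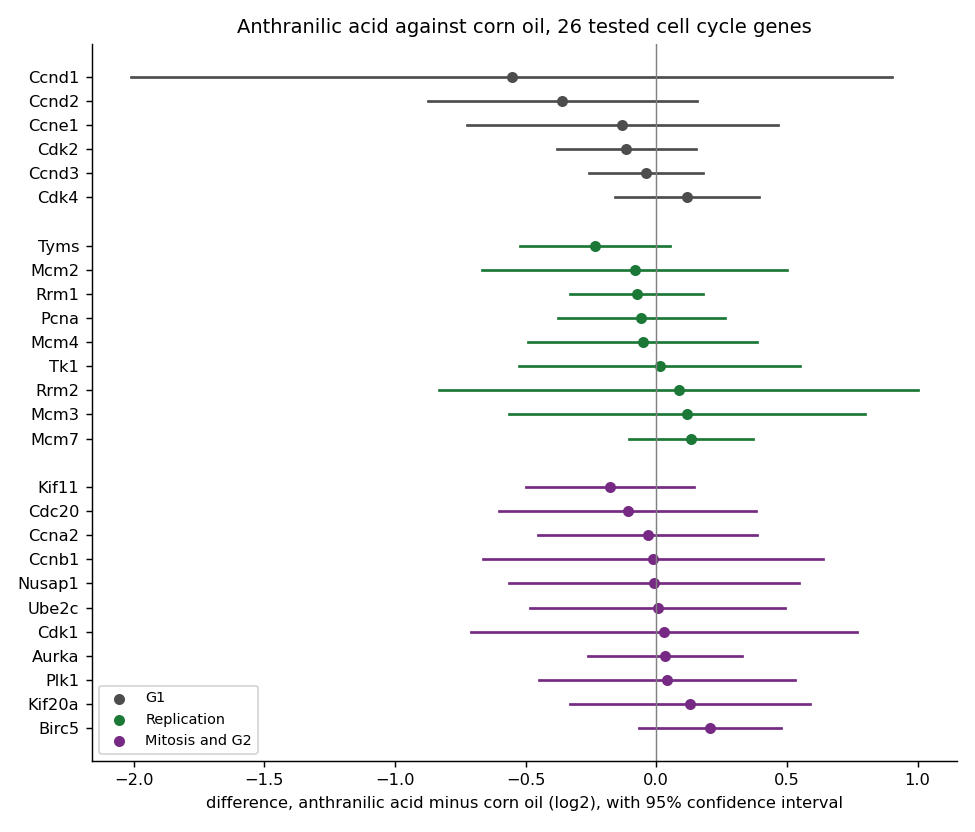
Difference between anthranilic acid and corn oil (x axis, log2) for the 26 tested genes, by phase. Points are the fitted differences and lines their 95% confidence intervals. Every interval includes 0. That of Ccnd1 reaches down to -2.01 and that of Rrm2 up to 1.002.

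Promoters of 4 members are shown first, 2 of replication genes and 2 of mitotic genes, to show the words that were counted. The sequences are the 250 bases before the start of each gene in RefSeq (GRCr8 assembly), 5′ to 3′ on the gene's strand, with E2F words, CCAAT and CHR words in capitals. Mcm2, a subunit of the replicative helicase, lies at chr4:122918095-122918344 on the minus strand. Mcm7, a second subunit, lies at chr12:22163179-22163428 on the minus strand. Cdk1, the kinase that starts mitosis, lies at chr20:19265043-19265292 on the plus strand. Cdc20, which activates the ubiquitin ligase that ends metaphase, lies at chr5:137255800-137256049 on the minus strand.
Mcm2: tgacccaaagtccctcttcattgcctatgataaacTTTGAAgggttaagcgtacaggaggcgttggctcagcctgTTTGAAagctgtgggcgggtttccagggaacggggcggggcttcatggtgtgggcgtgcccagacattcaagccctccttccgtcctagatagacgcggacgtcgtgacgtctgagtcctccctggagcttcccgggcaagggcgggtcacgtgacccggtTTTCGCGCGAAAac
Mcm7: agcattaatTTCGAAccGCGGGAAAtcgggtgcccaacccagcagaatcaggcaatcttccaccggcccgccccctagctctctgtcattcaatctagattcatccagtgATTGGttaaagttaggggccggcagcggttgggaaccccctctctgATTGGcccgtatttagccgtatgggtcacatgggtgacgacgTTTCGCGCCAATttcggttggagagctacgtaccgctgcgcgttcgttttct
Cdk1: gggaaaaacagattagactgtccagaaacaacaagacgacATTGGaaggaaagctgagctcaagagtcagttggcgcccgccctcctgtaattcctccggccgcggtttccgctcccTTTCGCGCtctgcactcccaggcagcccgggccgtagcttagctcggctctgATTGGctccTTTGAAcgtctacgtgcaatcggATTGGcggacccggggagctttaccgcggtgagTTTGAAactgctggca
Cdc20: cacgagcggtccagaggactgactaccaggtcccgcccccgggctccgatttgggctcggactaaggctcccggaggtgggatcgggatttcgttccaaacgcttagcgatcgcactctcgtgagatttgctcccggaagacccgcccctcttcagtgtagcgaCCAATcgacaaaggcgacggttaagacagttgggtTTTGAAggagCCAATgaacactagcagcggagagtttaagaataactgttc
Close to the gene start, Mcm2 carries TTTCGCGC and its reverse complement GCGCGAAA, which overlap, and 2 CHR words further up. In Mcm7 1 of 2 E2F words runs into a CCAAT box, 1 of 3. The other E2F word lies further up, close to a CHR word. Cdk1 carries 1 E2F word, 3 CCAAT boxes and 2 CHR words. Cdc20 has 2 CCAAT boxes with a CHR word between them and no E2F word in this window.

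The table of promoters held 28 of the 37 members. Words were sought on both strands of a 300-base window (250 before and 50 after the start): TTTCCCGC, TTTCGCGC, TTTGCCGC and TTTGGCGC for E2F, CCAAT, and TTTGAA and TTCGAA for the CHR. An E2F word was present in 7 of 10 replication promoters (70.0%), 1 of 14 mitotic promoters (7.14%) and 0 of 4 G1 promoters, and in 2.14% of all 33469 promoters. The 7 replication genes were Cdt1, Mcm2, Mcm3, Mcm5, Mcm6, Mcm7 and Tyms, and the mitotic gene was Cdk1. A CHR word was present in 10 of 14 mitotic promoters (71.4%), 3 of 10 replication promoters and 0 of 4 G1 promoters, and in 19.7% of all promoters. A CCAAT box was present in 12 of 14 mitotic, 6 of 10 replication and 2 of 4 G1 promoters, and in 37.5% of all. Both CHR and CCAAT were present in 9 of 14 mitotic promoters (64.3%), against 7.95% of all. A match describes the letters in the window and not a bound factor.

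**Figure D2:**
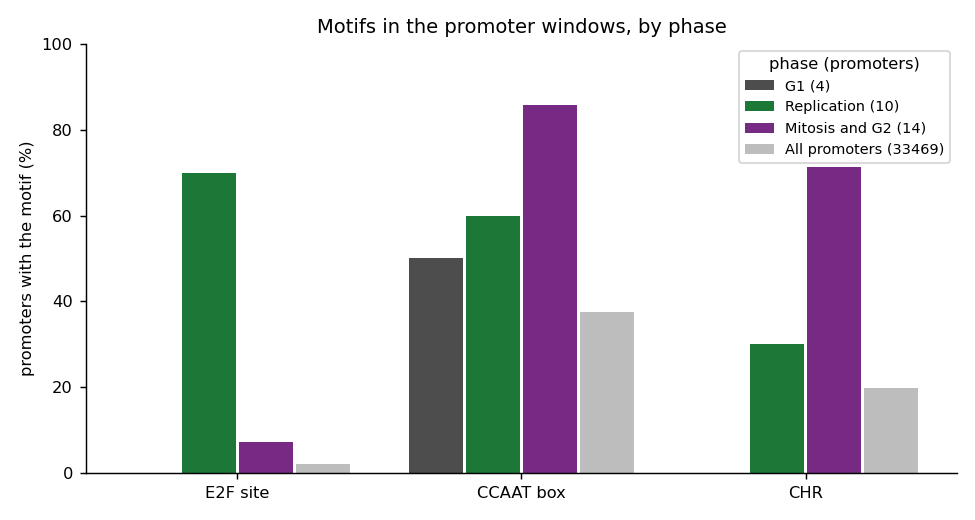
Share of promoter windows (y axis, %) with an E2F word, a CCAAT box or a CHR word, by phase, with the number of promoters in the legend. E2F words are most common in replication promoters (70.0%) and CHR words in mitotic promoters (71.4%); all promoters hold them in 2.14% and 19.7%.

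Among the G1 genes, 6 of 7 were tested, with 1 difference above 0 and 5 below, and a median of -0.12, beside 0.01 over all tested genes. The D-type cyclins bring growth signals to the cell cycle. Cyclin D2 (Ccnd2) had the smallest p of the group by brightest probe. Its level was -0.35, -0.72 and -1.11 in corn oil replicates 1 to 3, and -1.29, -0.87 and -1.11 in anthranilic acid replicates 1 to 3. Corn oil replicate 1 was the highest and the groups overlapped, with a difference of -0.36 (SE 0.21, limma adjusted p = 0.517). Cdk2, the kinase of the E-type cyclins, was at 0.99, 0.68 and 0.89 in the control rats and at 0.82, 0.74 and 0.66 in the treated rats. The treated values lay within or just below the control range, with a difference of -0.11 (SE 0.11, limma adjusted p = 0.690). Its dimmer probe gave -0.32 (SE 0.16, limma adjusted p = 0.460), the smallest unadjusted p of all 42 member probes at 0.0901.

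Cyclin D1 (Ccnd1), the D-type cyclin best known for hepatocyte entry into the cycle, had the widest spread between rats of all members. It was at 3.72, 3.46 and 1.69 in corn oil replicates 1 to 3, and at 1.62, 2.75 and 2.84 in anthranilic acid replicates 1 to 3. The rats did not divide by treatment: corn oil replicate 3 and anthranilic acid replicate 1 shared the low end, and the other control rats the high end. The difference was -0.55 (SE 0.60, 95% confidence interval -2.01 to 0.90, limma adjusted p = 0.727). Its 3 probes gave -0.55, -0.53 and -0.44, so the probes repeated the order of the groups while the rats within a group ranged over 2.03 in corn oil and 1.22 in anthranilic acid. Cyclin D3 (Ccnd3) was close to equal, at -0.04 (SE 0.09). Cyclin E1 (Ccne1) was at -0.13 (SE 0.25), and Cdk4, the kinase of the D-type cyclins, at 0.12 (SE 0.11). The second E-type cyclin, Ccne2, was not tested: 1 of its 2 probes was well above background on 1 control array, and the other on no array.

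Replication and nucleotide supply had 9 of 13 genes tested, 4 above 0 and 5 below, with a median of -0.05. Thymidylate synthase (Tyms), which makes the thymidine nucleotide, had the smallest p. It was at -1.67, -1.65 and -1.90 in corn oil and at -2.11, -1.81 and -2.00 in anthranilic acid. All treated rats lay below corn oil replicates 1 and 2, but 1 lay above corn oil replicate 3, and the difference was -0.23 (SE 0.12, limma adjusted p = 0.464). Mcm7 was next, at 2.40, 2.19 and 2.19 in corn oil and 2.46, 2.32 and 2.41 in anthranilic acid. All treated rats lay above corn oil replicates 2 and 3, with a difference of 0.13 (SE 0.10, limma adjusted p = 0.598). Its dimmer probe gave 0.11 (SE 0.20).

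The other helicase subunits were near 0 in their differences, with Mcm2 at -0.08 (SE 0.24), Mcm3 at 0.12 (SE 0.28) and Mcm4 at -0.05 (SE 0.18). Mcm3 shows how the control rats differed: it was at 0.10, -0.65 and -1.04 in corn oil, and at -0.26, -0.51 and -0.47 in anthranilic acid. The treated rats lay inside the control range. Rrm2, the small subunit of the ribonucleotide reductase that makes deoxynucleotides, had the widest range in this phase. It was at 0.53, -1.02 and -0.47 in corn oil and at -0.05, -0.24 and -0.41 in anthranilic acid, so the control rats held both the highest and the lowest value (difference 0.09, SE 0.38). Rrm1, the large subunit, was at -0.08 (SE 0.10), the sliding clamp Pcna at -0.06 (SE 0.13) and thymidine kinase Tk1 at 0.01 (SE 0.22). The dimmer probe of Tk1 gave -0.28 (SE 0.14, limma adjusted p = 0.462).

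G2 and mitosis had 11 of 17 genes tested, 6 above 0 and 5 below, with a median of 0.01 and a median absolute difference of 0.03. Survivin (Birc5), a part of the chromosomal passenger complex, had the smallest p. It was at -1.34, -1.45 and -1.31 in corn oil and at -1.04, -1.35 and -1.09 in anthranilic acid. Anthranilic acid replicates 1 and 3 lay above all control rats and replicate 2 among them, with a difference of 0.21 (SE 0.11, limma adjusted p = 0.486). Kif11, the motor that separates the spindle poles, was at -2.95, -3.10 and -3.20 in corn oil and at -3.04, -3.44 and -3.30 in anthranilic acid. Of the treated rats, 2 lay below all control rats, with a difference of -0.18 (SE 0.13, limma adjusted p = 0.606).

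The mitotic kinase and its cyclins showed no difference beyond the spread. Cdk1 was at -0.29, -1.24 and -1.25 in corn oil, and at -0.81, -1.27 and -0.62 in anthranilic acid. Corn oil replicate 1 stood above every other rat, while corn oil replicates 2 and 3 and anthranilic acid replicate 2 shared the low end (difference 0.03, SE 0.31, limma adjusted p = 0.977). Cyclin B1 (Ccnb1), the partner of Cdk1, was at -0.01 (SE 0.27) and cyclin A2 (Ccna2) at -0.03 (SE 0.17). Cdc20 was at -0.11 (SE 0.20), and Ube2c, the ubiquitin-conjugating enzyme of the same ligase, at 0.01 (SE 0.20). The mitotic kinases Aurka and Plk1 were at 0.03 (SE 0.12) and 0.04 (SE 0.20). The kinesin Kif20a, which acts in cytokinesis, was at 0.13 (SE 0.19), and the spindle protein Nusap1 at -0.01 (SE 0.23).

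How large a change these data leave room for differs by gene. The 95% confidence interval lay within 1 log2 unit (2-fold) of 0 in 24 of the 26 tested members, the exceptions being Ccnd1 and Rrm2, and within 0.5 in 12. The median residual SD of the members, which pools both groups, was 0.28, beside 0.15 over all tested genes. Most members had a wider range in corn oil than in anthranilic acid, as Rrm2 did (1.55 against 0.36). Others had the reverse, as Tk1 did (0.38 against 0.77). The wider spread is thus not shown for the treated rats taken alone. Where a member had more than 1 tested probe (12 genes), the differences had the same sign in 8 and opposite signs in 4, namely Pcna, Tk1, Ccna2 and Aurka.

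Corn oil replicate 1 was at the high end of most members. This rat had the highest of the 6 signals in 76.9% of tested members, against 17.3% of all tested genes. By phase it was the highest in 5 of 6 G1 genes, 6 of 9 replication genes and 9 of 11 mitotic genes. Its level was above the mean of corn oil replicates 2 and 3 in 26 of 26 members, where 49.1% of all tested genes were. The median excess was 0.46, beside -0.0038 over all tested genes, and by phase 0.32, 0.37 and 0.52. Rrm2 had the largest excess, 1.28 (2.42-fold), followed by Ccnd1 at 1.15 (2.22-fold), Cdk1 at 0.95 (1.94-fold), Mcm3 at 0.94 (1.92-fold) and Ccnb1 at 0.81 (1.75-fold). Birc5 had the smallest, 0.04 (1.03-fold). Of the 6 members whose highest rat was another one, Mcm7, Tk1 and Birc5 peaked in anthranilic acid replicate 1, Cdk4 and Plk1 in anthranilic acid replicate 3, and Tyms in corn oil replicate 2.

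**Figure D3:**
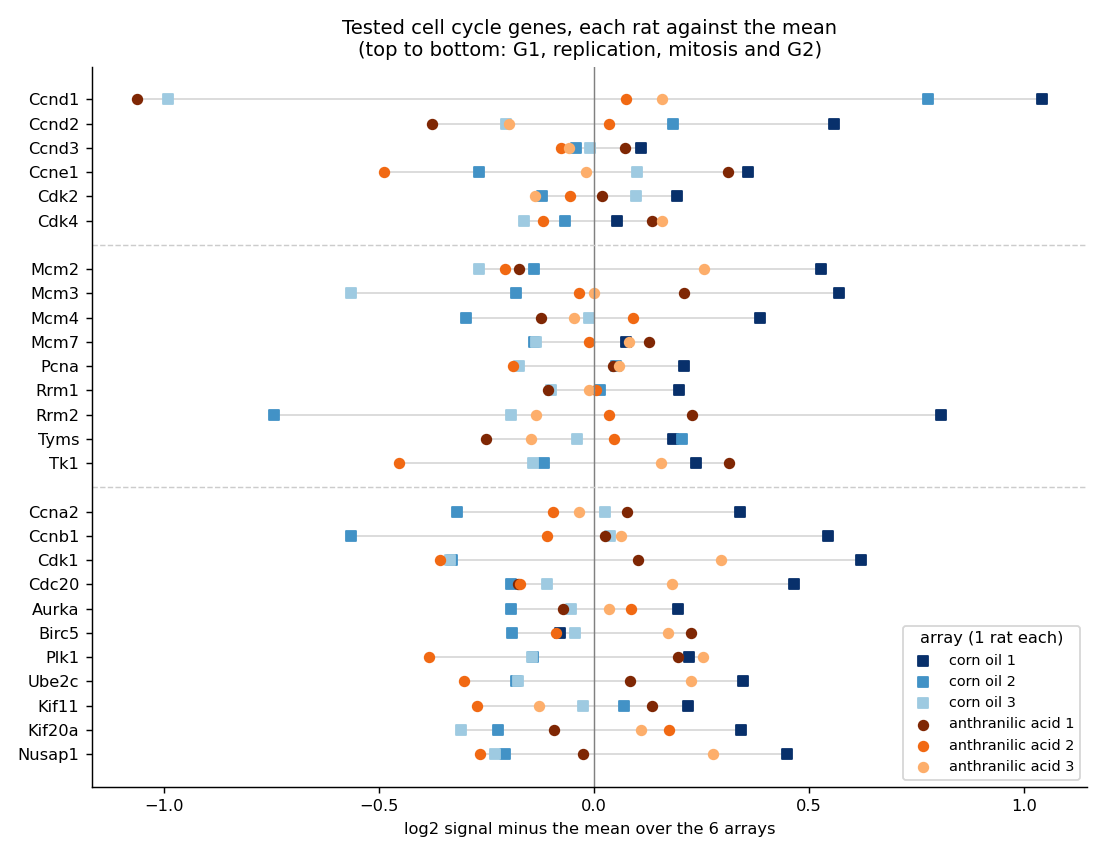
Level of each tested member in each rat, as log2 signal minus the gene's mean over the 6 rats (x axis), with G1, replication and mitotic genes from top to bottom. Dark blue squares, corn oil replicate 1, lie furthest right in 20 of 26 genes; in the mitotic genes the lowest rat is mostly corn oil replicate 2 or anthranilic acid replicate 2.

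At the other end, the lowest rat was corn oil replicate 2 or anthranilic acid replicate 2 in 10 of 11 mitotic genes and in 17 of 26 members (65.4%), where 34.9% of all tested genes had it so. Cdk1, Ube2c and Nusap1 had the same order at the top, with corn oil replicate 1 followed by anthranilic acid replicate 3. The direction of the members' differences depended on which rats were included. Without corn oil replicate 1, 21 of 26 members lay above 0 with a median of 0.14 (51.8% of all genes lay above 0). A rise was fixed in advance, since this rat lay above the mean of the other control rats in 26 of 26 members. Without corn oil replicate 2 or 3, 5 and 7 of 26 lay above 0, with medians of -0.12 and -0.09 (51.5% and 52.2% of all genes). Without anthranilic acid replicate 1, 2 or 3, the counts were 7, 16 and 7, with medians of -0.04, 0.03 and -0.07. Of all genes, 53%, 52% and 51% then lay above 0. The groups did not overlap for 4 members without corn oil replicate 1 (Rrm2, Mcm3, Kif20a and Mcm7), where 27.5% of all genes did not. They did not overlap for 4 without corn oil replicate 3 (Tyms, Rrm1, Ccnd2 and Ccnd1; 34.5% of all genes) and for 4 without anthranilic acid replicate 2 (Cdk4, Tyms, Birc5 and Mcm7; 29.7%). These counts are 15.4% of the members, below the share over all genes. Without any 1 rat, 0 of 42 member probes passed the limma threshold, and at most 3 of 26 members had an unadjusted p under 0.05. The share of all genes at that level was not computed for these fits, so the member counts have no matching background. In the fit with every rat it was 11.6% of all genes, beside 0 of 26 members.

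Corn oil replicate 1 was rarely the highest rat for cell type markers, other than those of hepatocytes. It was the highest for 0 of 8 tested lymphocyte markers, 0 of 8 of Kupffer cells and macrophages and 0 of 6 of erythroid cells. Endothelium had 0 of 5, stellate cells and fibroblasts 0 of 8 and neutrophils 0 of 3. Cholangiocytes had 1 of 4 (25.0%) and hepatocytes 4 of 10 (40.0%), against 17.3% of all tested genes. The median excess of these lists over corn oil replicates 2 and 3 ran from -0.36 to 0.04. Summed over their tested genes, members stood at 39.6 times the 75th percentile in corn oil replicate 1 and at 31.7 and 23.9 in corn oil replicates 2 and 3. The treated rats were at 26.9 to 30.7. Such sums, here and for the marker lists, weigh the brightest probes most. Ccnd1 alone was at 1319%, 1097% and 322.1% of that percentile in corn oil replicates 1 to 3. By treatment, the summed signal of the lymphocyte markers was 3.16 to 3.55 in corn oil and 4.05 to 4.72 in anthranilic acid. Of its 8 genes, 6 had a difference above 0, 4 had an unadjusted p under 0.05, all higher (5.47% of all genes were higher at that level), and 0 passed the limma threshold. The hepatocyte sum was 4767 to 4899 in corn oil and 4439 to 4582 in anthranilic acid, with 9 of 10 genes below 0, 1 at an unadjusted p under 0.05 and 0 past the limma threshold. Erythroid markers had 6 of 6 genes above 0, 0 of them at an unadjusted p under 0.05 or past the limma threshold, with sums of 633 to 1098 and 926 to 1192. The part of these cell types in the members' values was not tested.

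Detection of the members was slightly lower in the pooled treated rats, but by the well above background call the rats of the groups overlapped. Over 201 spots per group, 68.7% of member spots were well above background in corn oil and 63.2% in anthranilic acid. All probes were at 57.0% and 55.0%. By rat, the members' shares were 73.1%, 62.7% and 70.1% in corn oil and 62.7%, 65.7% and 61.2% in anthranilic acid. The gap was widest in the replication genes, at 66.7% against 57.8%, where the rats also overlapped. G1 genes had 79.5% against 76.9% (31 and 30 spots) and mitotic genes 65.3% against 62.5% (47 and 45 spots). Of the 67 member probes, 10 were detected on more corn oil arrays and 2 on more anthranilic acid arrays, or 14.9% and 2.99%, against 7.45% and 3.58% of all probes. Replication probes of corn oil replicate 1 were detected most often, at 76.7%, and those of anthranilic acid replicate 3, the array with the lowest share over all probes, least often, at 53.3%. By the extraction software's looser call of a positive and significant signal, the widest gap moved to the mitotic genes, at 84.7% against 72.2%. Of the 24 mitotic probes, 20, 20 and 21 had this call in corn oil replicates 1 to 3. In anthranilic acid replicates 1 to 3 the counts were 17, 18 and 17, so here the groups did not overlap. Replication genes then had 94.4% against 93.3%. The share over all probes was not computed for this call. These shares were not tested.

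**Figure D4:**
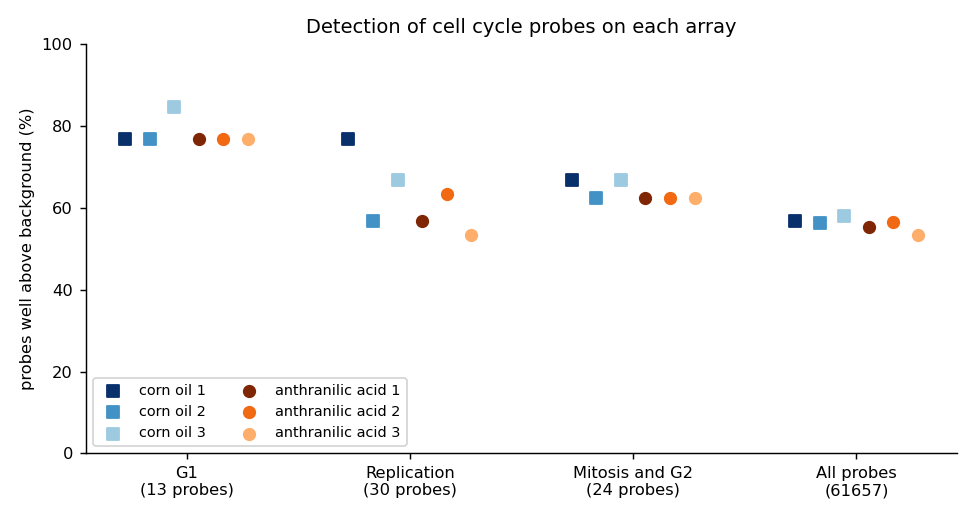
Share of probes well above background (y axis, %) on each array, for the 13 G1, 30 replication and 24 mitotic probes and for all 61657 non-control probes. Replication probes range from 53.3% in anthranilic acid replicate 3 to 76.7% in corn oil replicate 1, and all probes from 53.3% to 58.0%.

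Of the 67 member probes, 40 were well above background on all 6 arrays, 15 on none and 12 on some. Cdc6 and Cdt1, which load the helicase at origins, the helicase subunit Mcm6, cyclin B2 (Ccnb2), the kinase Aurkb and the kinetochore protein Cenpf had probes, but none detected in all 3 rats of either group, and were not tested. The 4 Cenpf probes and the Aurkb probe were detected in 0 rats. Mcm5, Mki67, Top2a and Bub1b were matched to no probe here.

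Other genes of the same pathways were taken from 5 lists of 92 genes, of which 77 had a probe and 56 were tested. By their brightest probe 0 of 56 passed the limma threshold and 4 had an unadjusted p under 0.05, all lower in the treated rats (6.15% of all genes were lower at that level), and the median difference was -0.03. The groups did not overlap in 5 of 56, where 19.8% of all genes did not. Corn oil replicate 1 was the highest rat in 19 of 56 (33.9%), most often among spindle, checkpoint and cytokinesis genes (7 of 14) and in 1 of 7 of the E2F and Rb family. Over all 88 tested probes of these lists, 1 passed and 10 had an unadjusted p under 0.05 (11.4%, beside 12.2% of all probes in either direction). Each of the 10 was lower in the treated rats, and the share of all probes lower at that level was not computed. They include more than 1 probe of a gene, and dim probes of Mcm10 and Cdkn1a that were tested only through corn oil, where they are high.

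The probe that passed belongs to Cdkn1a, the inhibitor p21 that stops cyclin-dependent kinases. This dim probe was at -2.74, -2.68 and -2.66 in corn oil and well above background in no treated rat, a fall of at least 3.03-fold (limma adjusted p = 0.000265). It entered the test only through the corn oil arrays, where it is high. Its treated signals were raised to a small positive value by the extraction software, so the p rests partly on that floor. A brighter probe was at 3.95, 3.77 and 3.87 in corn oil and 1.40, 0.26 and 1.47 in anthranilic acid (difference -2.82, SE 0.32, limma adjusted p = 0.0914). The groups of both probes lay apart. The brightest probe was at 5.78, 5.86 and 5.87 in corn oil and 5.83, 5.59 and 5.69 in anthranilic acid, with overlapping groups (difference -0.14, SE 0.09, limma adjusted p = 0.571). The probes of this inhibitor thus disagree, and no single value is given for the gene.

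Mcm10, which joins the helicase when origins fire, had the smallest p in the list of replication fork and origin genes. It was at -0.02, -0.44 and -0.49 in corn oil and at -1.67, -3.41 and -2.05 in anthranilic acid. Every treated rat lay below every control rat, with a difference of -2.06 (SE 0.44, limma adjusted p = 0.223). Its second probe was detected in all control rats and in no treated rat, which gives a bound of at least 1.69-fold lower (limma adjusted p = 0.0663). As with the dim Cdkn1a probe, it was tested only through the group where it is high and is no independent support. In the same list the origin subunit Orc2 was at 0.34 (SE 0.18).

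E2f1, the factor that the G1 kinases release, was at -1.09, -1.73 and -2.24 in corn oil and at -2.07, -2.54 and -1.98 in anthranilic acid (difference -0.51, SE 0.31, limma adjusted p = 0.526). Its dimmer probe gave -0.98 (SE 0.29, limma adjusted p = 0.316) with groups that did not overlap. Its dimerisation partner Tfdp1 was at 0.17 (SE 0.08), with all treated rats above all control rats. Cenpa, the histone of the centromere, was at -0.68 (SE 0.21, limma adjusted p = 0.327) and the checkpoint kinase Chek2 at -0.39 (SE 0.15, limma adjusted p = 0.388). Of the rest that the rule names, Pttg1 was at 0.25, Cks2 at 0.20, Cdkn1b at 0.03 and Cdkn2b at -0.53.

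**Figure D5:**
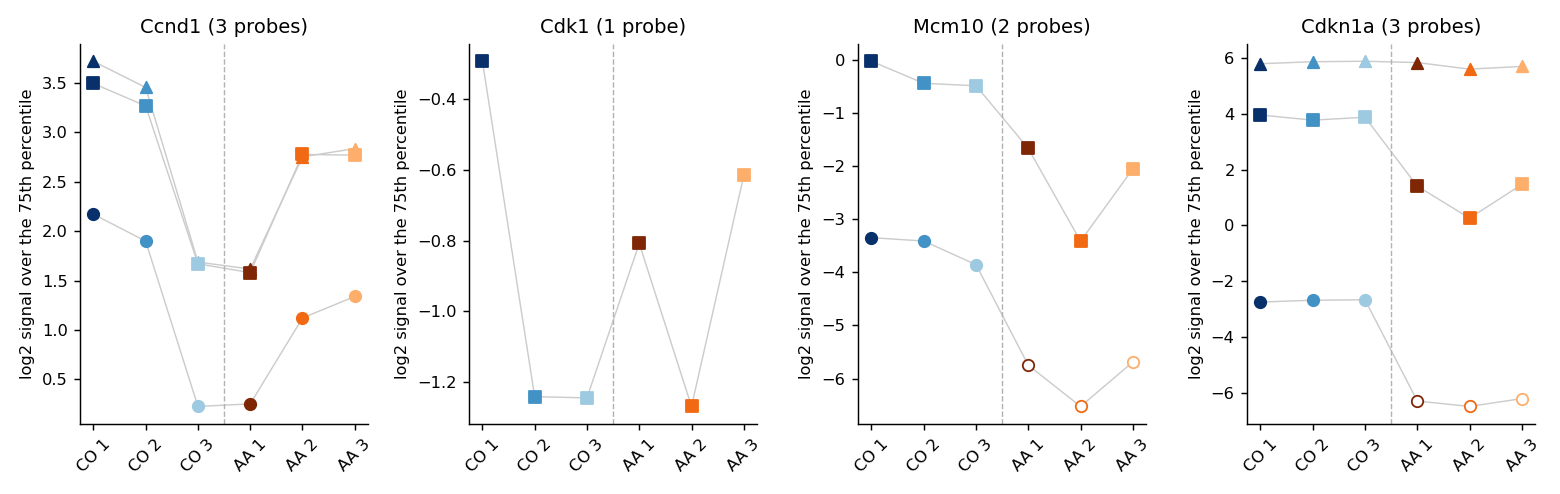
Log2 signal over the array's 75th percentile (y axis, a separate scale in each panel) for each rat (CO, corn oil; AA, anthranilic acid), with 1 marker shape per tested probe joined by a grey line and open markers where the probe was well above background on no array of the group. Ccnd1 and Cdk1 overlap between the groups, both Mcm10 probes are lower in all 3 treated rats, and 2 of the 3 Cdkn1a probes are lower while the brightest is not.

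The arrays held 61657 non-control probes, of which 53.3% to 58.0% were well above background per array, and no spot was saturated. All 17 probes of the 10 hepatocyte markers were well above background in every rat. A single slide carried 5 of the arrays, and on it the groups lay in different rows, whose effects cannot be told apart from that of treatment. The array of anthranilic acid replicate 3 was on another slide with its own scan. With slide as a block 7 of 26 members lay above 0. Since that slide held no other array, this block gives the same contrast as leaving that rat out.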

How the data were processed

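Liver RNA of 6 rats was measured on single-colour (Cy3) Agilent arrays, 3 per group. Per the file headers, spot intensities were extracted with Feature Extraction 10.7.1.1 (10.7 per the submitters' processing notes), which subtracts background and raises dim spots to a small positive value, so a dim probe keeps no true level. The deposited intensity was not scaled between arrays. A table that the authors deposited for the series holds a ratio of the same signal to 1 value per array, and served only as an alternative.

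Values are log2 of the processed signal less the 75th percentile of the array's non-control probes. Control spots and 14 outlier spots were left out. Tested probes (33428) were well above background in all 3 rats of a group or of both, and had 2 or more unflagged spots in each. Gene symbols come from RefSeq's GRCr8 table through the probe accession (27460 of 61657 probes); the file headers name another build, rn4, so probes are given no coordinates. The test was limma's moderated two-sided test (limma 3.58.1, R 4.3.3; lmFit, eBayes), with Benjamini-Hochberg adjustment across every tested probe. Adjusted p-values are from this fit, which was tested on simulated data, or, where an alternative is named, from the same fit under that alternative. Precision is limited by the 3 arrays per group. A p-value sets the difference between groups against the spread between these arrays within a group, moderated across probes.

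All tested members are named. Every array's value is given for members with an unadjusted p under 0.05 (none) and the 2 of smallest p in each phase; other members shown by rat were picked for their spread after their values were seen. In the other lists the gene of smallest p in each direction is named, with Cdkn1a (a probe passed) added after the values were seen. Some genes of these lists are not reported here. Members and lists were chosen with earlier results of these data known. The look at corn oil replicate 1 was also chosen after seeing the data. Alternatives covered background correction (normexp with offset 50, run on median spot and background signals for lack of mean signals), the scaling, the authors' ratio table, the filter on dim probes, the variance model, array weights, slide and replicate blocks, the median over a gene's probes, and each rat left out.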

Additional observations from a re-analysis of the deposited data

How the results depend on the processing

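No member probe passed the limma threshold under any alternative, and none did without any 1 rat; corn oil replicate 1 was the highest rat in 19 to 21 of 26 members (24 of 33 without the filter). Over all probes, 11 passed. The count was 50 with normexp, 45 with trend and robust variance, 18 with array weights and 6 with slide as a block. It was 2 without the filter on dim probes, 2 with the filter set to all 6 arrays, and 2 to 8 without 1 rat. The slide block gives the same contrast as leaving out anthranilic acid replicate 3. With the replicate number as a block (replicate block) 2 passed; the numbers do not pair the rats, since same-numbered deviations correlated at 0.072, -0.051 and -0.043. The G1 median ran from -0.25 to -0.0204 without 1 rat, the replication median from -0.14 to 0.13 and the mitotic median from -0.11 to 0.18. With normexp 1 member, Birc5, had groups apart (3.85% of members, against 19.4% of all genes). Without the filter 1 did, Cenpf (3.03% of members, against 16.9% of all genes), whose probes were well above background in 0 rats.

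The sign of small differences turned often; the cause was not tested. With normexp Mcm4 was 0.0327, Ccna2 0.006, Ccnb1 0.0289, Ube2c -0.055 and Cdkn1b -0.0161. With the percentile over detected probes Tk1 was -0.0103 and Ube2c -0.0165, and with quantile normalization Ccna2 was 0.006, Ccnb1 0.0368 and Nusap1 0.0304. With array weights Ccna2 was 0.0217 and Ccnb1 0.0764. With slide as a block, the same contrast as without anthranilic acid replicate 3, Tk1 was -0.0621, Cdk1 -0.11, Plk1 -0.0732 and Ube2c -0.11. With the median over a gene's probes Tk1 was -0.13, Aurka -0.0241 and Cdkn1b -0.0387. Without 1 rat, 18 genes turned: Ccnd3 (-0.086 to 0.0054), Ccne1 (-0.32 to 0.0824), Mcm2 (-0.24 to 0.16), Mcm3 (-0.14 to 0.43), Mcm4 (-0.21 to 0.13), Pcna (-0.16 to 0.0335), Rrm1 (-0.14 to 0.0051), Rrm2 (-0.26 to 0.51), Tk1 (-0.14 to 0.24), Ccna2 (-0.20 to 0.13), Ccnb1 (-0.30 to 0.26), Cdk1 (-0.13 to 0.35), Cdc20 (-0.23 to 0.10), Aurka (-0.0547 to 0.14), Plk1 (-0.0732 to 0.25), Ube2c (-0.11 to 0.18), Nusap1 (-0.15 to 0.21) and Cdkn1b (-0.12 to 0.19).

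Mcm10 kept its sign, between -2.42 and -1.54 without 1 rat and at -1.50 with normexp, where Cenpa was -0.13, Chek2 -0.21 and the called Cdkn1a probe -0.98. The called Cdkn1a probe, tested only through corn oil, had limma adjusted p between 4.15e-05 and 0.0339 under the alternatives that tested it, which is no sign of stability. The brighter of the 2 lower probes passed with normexp (limma adjusted p = 0.0288) and without anthranilic acid replicate 2 (limma adjusted p = 0.0133). Signal over background limits which members could be tested. With a looser detection call the shares were 94.4% in corn oil and 93.3% in anthranilic acid for replication probes. Mitotic probes were at 84.7% and 72.2%, with every corn oil rat above every treated rat and no share over all probes computed.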
